A study of Arabidopsis thaliana with 12 samples.

Results

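The transcript changes caused by cycloheximide (CHX) alone were examined in whole roots of Arabidopsis thaliana, by setting the 3 arrays of CHX-treated roots against the 3 arrays of mock-treated roots. These 6 arrays, of 12 in the series, were the ones without dexamethasone (DEX). All 12 came from 5-day-old seedlings carrying 35S::LBD16:GR, a fusion of LBD16 to the glucocorticoid receptor (GR) driven by the strong 35S promoter, together with the mutations arf7-2 and arf19-5, so that the plants lack the auxin response factors ARF7 and ARF19. The mock group received 0.1% DMSO, the CHX group 10 µM CHX, the DEX group 2 µM DEX, and the last group 2 µM DEX with 10 µM CHX, each for 4 hours and each on 3 arrays. The labels describe the 3 arrays of a treatment as independent RNA sets. They give no solvent for the CHX group, and no array came from plants without the fusion or with working ARF7 and ARF19, so the values describe CHX in this 1 line.

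CHX stops elongation by cytosolic ribosomes, so transcripts are still made and degraded while their proteins are not. Transcripts that are normally held low by short-lived repressor proteins, or degraded in a way that needs translation, can then accumulate, which is called superinduction and is best known for early-response genes. Transcripts whose synthesis needs a continuously replaced protein can fall. An array reads the transcript level at a single time point, so faster synthesis and slower decay cannot be told apart here, and in whole roots fewer cells of a type and less RNA per cell cannot be told apart either.

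Within the mock and CHX groups the correlation of arrays over all genes was 0.992 to 0.994, and between the groups it was 0.874 to 0.885. LBD16 stood at 9.56, 9.45 and 9.46 on the mock arrays and at 9.67, 9.64 and 9.51 on the CHX arrays (log2 level), a difference of 0.11 (exact two-sided permutation test, p = 0.2, where 0.1 is the smallest p that 3 arrays against 3 allow). Expression was read for 16550 genes. The array annotation paired few of the well-studied genes with a row: 1762 of the genes tested carry a symbol, and 14649 are known here by locus alone. Of the protein-coding genes in the reference annotation, 16.4% of those with a symbol were measured, against 85.8% of those named by locus alone. The gene families below are therefore represented by part of their members. Most measured genes are not named in this text, so a gene left out may or may not have been measured. Low values have no stated floor, so a rise from a level of about 2 or 3, or a fall to such a level, may be understated.

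CHX changed most of the genes measured. Of the 16550 genes, 9088 (54.9%) passed an adjusted p of 0.05, of which 4002 were higher (24.2% of genes tested) and 5086 lower (30.7%). The rises were larger than the falls. A change of at least 2-fold was reached by 2081 higher genes (12.6%) and 1752 lower genes (10.6%), and a change of at least 16-fold by 327 higher and 16 lower genes. At 64-fold or more there were 102 higher genes and 0 lower ones. Falls that end near the dimmest values may be understated, and the part of this in the difference was not tested. The median log2 change was 1.04 among the genes called higher and -0.78 among those called lower, and the changes ran from -5.90 to 8.61. The arrays of the groups did not overlap for 60.2% of genes.

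The split into higher and lower genes depended on how the arrays were put on a common scale. As deposited, the median gene stood at -0.08 (log2, CHX minus mock), and 44.0% of the called genes were higher. Centring each array on the median of the genes tested gave 36.3% higher, quantile normalization 64.3% and centring on the median of all rows 75.4%, with the median gene at -0.19, 0.23 and 0.37. The array also holds 20927 rows that the annotation pairs with no gene, and these moved down: their median change was -0.57, with 50.8% called lower and 13.6% higher when all rows were tested. By at least 2-fold, 33.4% of the unnamed rows were lower, against 10.6% of the rows paired with 1 gene. Every change below is relative to the deposited scale, and where another scaling turned the median of a gene family, that is said with the family.

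**Figure D1:**
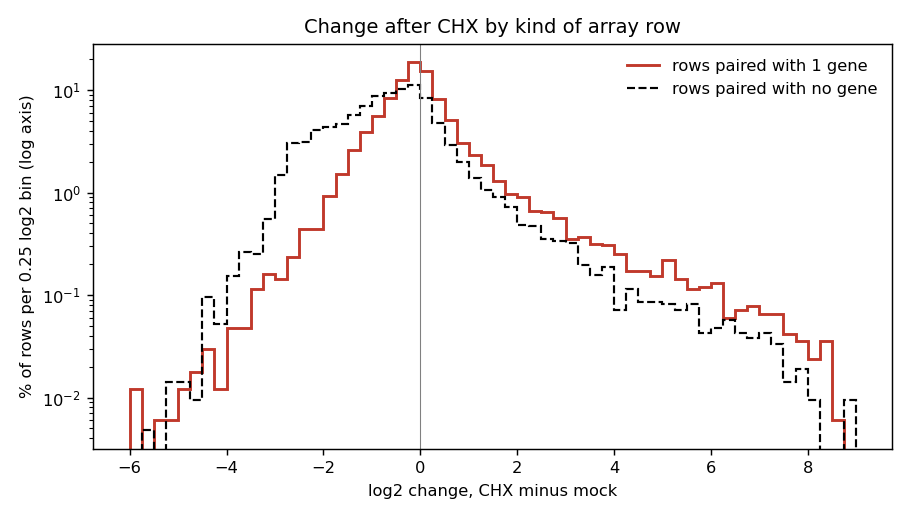
Distribution of the log2 change (CHX minus mock, horizontal axis) over rows paired with 1 gene (solid line) and rows paired with no gene (dashed line), as a percentage of the rows of each kind per bin of 0.25, on a log axis. The rows paired with 1 gene reach 8.61 on the right and -5.90 on the left, and the unnamed rows, with a median of -0.57, hold the larger share of falls.

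The largest rise was that of BGLU27, a beta-glucosidase gene of glycoside hydrolase family 1. It stood at 2.96, 3.17 and 2.95 on the mock arrays and at 11.59, 11.65 and 11.68 on the CHX arrays, so that it went from among the dim genes to a high level on all 3 arrays. Its log2 change was 8.61 with a standard error of 0.10 over 3 arrays a group (adjusted p from limma = 2.15e-13). BGLU32 and BGLU31, related genes that neighbour each other on chromosome 5, rose by 8.35 ± 0.34 and 7.46 ± 0.26. WRKY41, a transcription factor gene of the WRKY family, stood at 3.92, 3.75 and 3.70 with mock and at 12.32, 12.17 and 12.26 with CHX, a 352-fold rise (8.46 ± 0.11, adjusted p = 2.61e-13). Both groups of arrays were tight and lay far apart. The other genes among the 15 largest rises are named by locus alone. AT2G04070 rose by 8.42, AT1G05675 by 8.34, AT3G57460 by 8.31, AT3G28580 by 8.27, AT5G55150 by 8.19, AT1G34050 and AT3G12910 by 8.13, AT1G11925 by 8.04, AT2G04050 by 7.98, AT2G44070 by 7.95, AT1G06135 by 7.92 and AT1G22810 by 7.83. AT2G04070 and AT2G04050 lie close together in locus number and moved alike.

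The largest falls were smaller and began from higher levels. AT4G03292 stood at 9.18, 9.32 and 9.06 with mock and at 3.19, 2.99 and 3.67 with CHX, a 59.9-fold fall (log2 change -5.90 ± 0.25, adjusted p = 1.54e-09). AT3G49330 fell by 5.85, AT4G30450 by 5.49, AT2G12462 by 5.13, AT1G28815 by 4.92, AT5G57785 by 4.83, AT4G00910 by 4.74, AT1G74458 by 4.54, AT5G14940 by 4.48, AT5G22020 by 4.36, AT1G53542 by 4.35 and AT1G48690 by 4.26. Among the 15 largest falls 3 genes carry a symbol, MSRB5, MSRB4 and bZIP58. They are described with their families below.

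In each family the members named are those with the smallest p in each direction, not those with the largest change. The counts of a family stand beside 24.2% higher and 30.7% lower among all genes tested. Transcription factors of the WRKY family, many of which act in defence, were raised. Of 7 measured, 6 rose and 0 fell, with a median log2 change of 1.67 against -0.08 over all genes tested, and this direction held under all 4 scalings. Beside WRKY41, WRKY22 stood at 5.60, 5.91 and 5.89 with mock and at 10.11, 10.13 and 10.02 with CHX, and WRKY29, which acts with WRKY22 in the response to bacterial flagellin, had means of 9.26 ± 0.06 and 11.77 ± 0.36 (SD, n = 3). For both genes the CHX arrays lay above all mock arrays. WRKY22 rose by 4.28 ± 0.15 (adjusted p = 3.32e-10) and WRKY29 by 2.51 ± 0.15. WRKY6 rose by 1.67, WRKY47 by 0.55 and WRKY20 by 0.52. WRKY42 stood at 0.66 (adjusted p = 0.177), with mock arrays at 6.81, 6.87 and 5.89 and CHX arrays at 7.59, 7.42 and 6.55, so that the groups overlapped, although a replicate block made it a call (adjusted p = 0.0375), as did quantile normalization (0.96) and centring on all rows (1.11).

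Some zinc finger and AP2/ERF genes showed similar jumps, from families that as a whole were mixed. Of 13 genes listed for the early stress and touch response 1 was measured, STZ. STZ, also called ZAT10, a zinc finger repressor that responds within minutes to cold, salt and touch, stood at 6.35, 6.51 and 6.33 with mock and at 12.57, 12.43 and 12.58 with CHX. The rise was 6.13 ± 0.20 (adjusted p = 1.93e-10). ZAT7, a related zinc finger gene, went from 1.74, 2.04 and 1.78 to 9.47, 8.60 and 8.59 (7.03 ± 0.29). No other C2H2 gene of the 9 measured rose, 1 fell, and the median was 0.03. That 1 gene was JKD, a factor of the root ground tissue, at -0.24 (adjusted p = 0.0393), and leaving out any of 5 of the 6 arrays ended its call. Of 13 AP2/ERF genes 7 rose and 3 fell, with a median of 0.58. DREB2C, a factor of the heat and drought response, went from 4.76, 4.54 and 5.18 to 9.25, 9.57 and 9.85 (4.73 ± 0.21), and ABR1, a repressor of abscisic acid responses, from 6.46, 5.41 and 5.83 to 9.39, 10.56 and 10.61 (4.29 ± 0.31). The 3 that fell were LEP, which shapes the leaf petiole (-2.51 ± 0.17), the stress-related factor TINY, listed as tny (-1.02), and the floral repressor SMZ (-0.74).

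Basic helix-loop-helix (bHLH) and bZIP factors moved both ways, as did all genes tested, of which 24.2% were called higher and 30.7% lower. The bHLH shares lay near these. BHLH92, a bHLH factor linked to osmotic stress, went from 2.07, 2.04 and 2.25 to 9.85, 9.54 and 9.97 (7.66 ± 0.30, adjusted p = 9.04e-10), while 5 further bHLH genes of 22 rose and 7 fell (family median -0.07). Among those that fell were the iron-deficiency factors BHLH101 (-1.53 ± 0.19) and bHLH115 (-1.30 ± 0.12), and LHW, which sets the size of the vascular cylinder (-0.81). BZIP60, which turns on chaperone genes when proteins misfold in the endoplasmic reticulum, stood at 7.58, 7.57 and 7.54 with mock and at 11.49, 11.75 and 11.72 with CHX. It rose 17.0-fold (4.09 ± 0.10, adjusted p = 1.8e-11). bZIP58 moved the other way, from 7.82, 7.72 and 7.65 to 3.83, 2.96 and 3.80, an 18.4-fold fall (-4.20 ± 0.24, adjusted p = 2.39e-08). Of 20 bZIP genes 9 rose and 3 fell (median 0.23), the other falls being HYH, a partner of the light regulator HY5 (-1.07), and the flowering factor FD (-0.37, adjusted p = 0.0499), a call that ended when any of 5 of the 6 arrays was dropped. The medians of the C2H2 and bHLH families lay within 0.1 of 0 and changed sign between scalings.

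The auxin-response repressors of the Aux/IAA family did not all move in 1 direction. Of 8 measured, 3 rose, 2 fell and the median was -0.17, which became positive with quantile normalization (0.26) and with centring on all rows (0.28). IAA30 went from 2.38, 2.76 and 2.23 to 6.23, 5.28 and 5.93 (3.36 ± 0.22, adjusted p = 7.04e-08). IAA20 rose by 1.13 and IAA29 by 0.96. IAA33 fell by 1.51 and IAA31 by 0.92. IAA34 (-0.15), IAA18 (-0.19) and IAA15 (-0.43) were not called. GH3.1, of the family of enzymes that join auxin to amino acids, was picked after its values were seen: it stood at 7.06, 7.34 and 7.06 with mock and at 11.66, 11.51 and 11.45 with CHX, a 20.9-fold rise (4.38 ± 0.16).

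**Figure D2:**
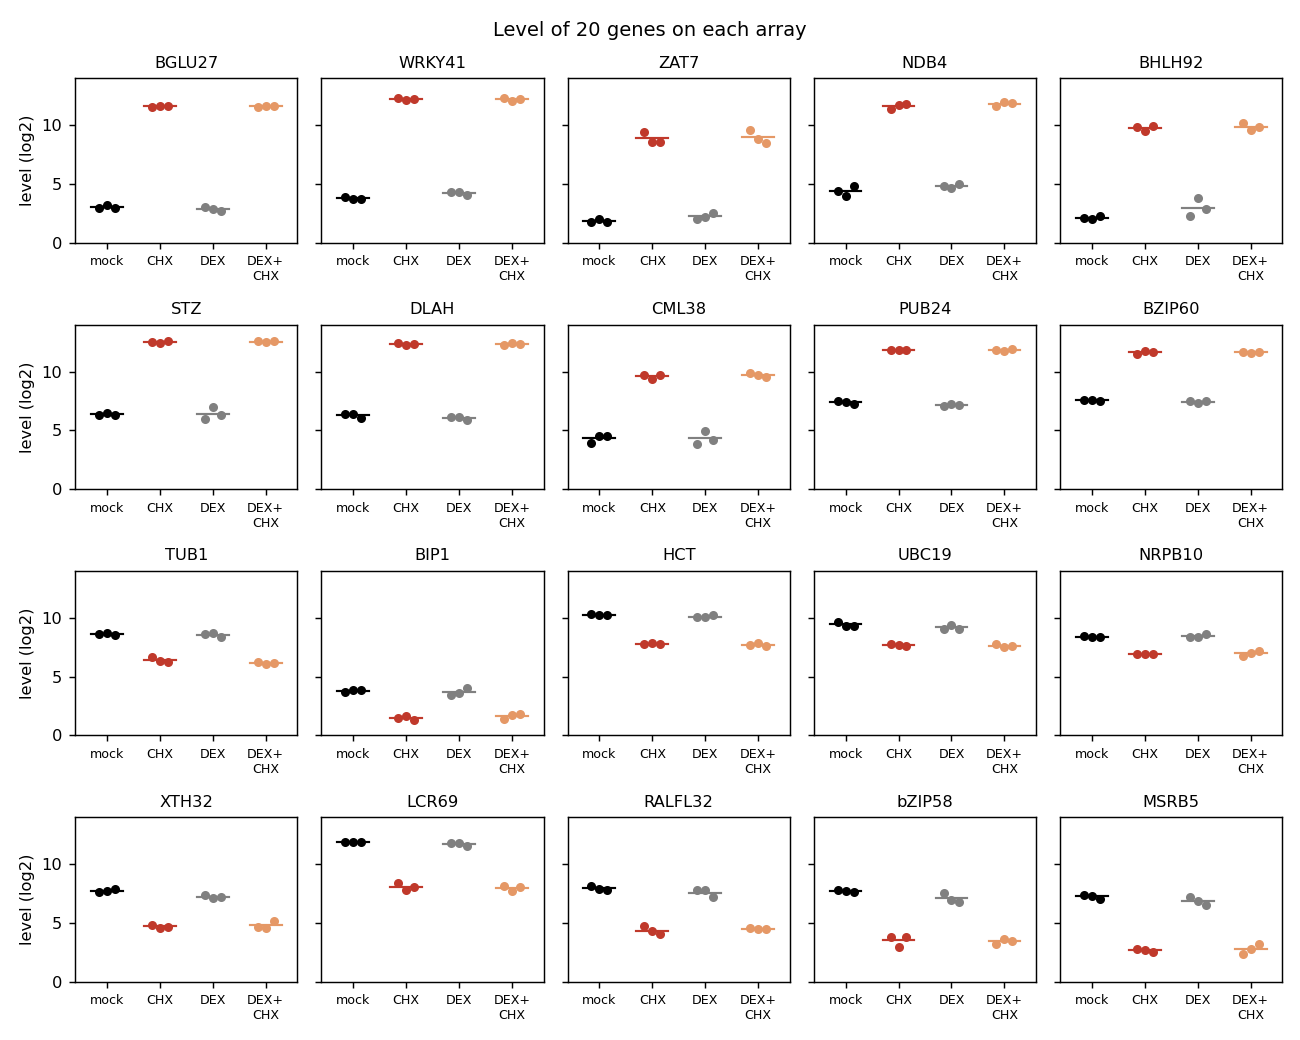
Level (log2) of 20 genes on each of the 12 arrays, by treatment, with points for arrays and a line for the mean of 3 arrays. The upper 10 genes, led by BGLU27, are higher on every CHX and DEX+CHX array than on any mock or DEX array, and the lower 10 genes, from TUB1 to MSRB5, are lower on every array with CHX.

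Among the genes counted for calcium signalling and for surface receptors rises outnumbered falls. Calmodulin-like proteins bind calcium and pass the signal on, and 5 of 6 measured rose while 0 fell (median 2.50, positive under all 4 scalings). CML38 stood at 3.89, 4.52 and 4.54 with mock and at 9.68, 9.37 and 9.73 with CHX (5.28 ± 0.26, adjusted p = 6.12e-09), and CML37 at 4.06, 4.06 and 4.23 and at 9.63, 9.15 and 9.22 (5.21 ± 0.28). All CHX arrays lay more than 4 log2 units above all mock arrays in both genes. CML41 rose by 2.91, CML23 by 2.09 and CML42 by 2.07, and CML43 stood at 0.21 (adjusted p = 0.328). Of 17 IQD genes, whose proteins bind calmodulin, 8 rose and 4 fell (median 0.28), with IQD22 at 2.81, IQD26 at 2.11 and IQD18 at 1.31 on the one side and IQD20 at -1.51, IQD30 at -1.31 and IQD31 at -1.19 on the other. Of 10 glutamate receptor-like channel genes 5 rose and 2 fell (median 0.30). The rises included GLR2.8 (3.80 ± 0.40), GLR2.9 (2.31) and GLR2.7 (1.63), whose loci are adjacent and which may share probes, and the falls were GLR3.5 (-1.14) and GLR3.6 (-1.03), a channel of the wound signal.

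Among 13 receptor-like kinase genes, counted with the cytoplasmic kinase BIK1, 8 rose and 1 fell, with a median of 0.62 that stayed positive under all 4 scalings. This set was put together by symbol after values were seen and leaves out relatives named by locus alone. Its counts describe these 13 genes and not receptor kinases in general. B120, a lectin-type receptor kinase, went from 6.34, 6.24 and 6.25 to 10.26, 10.23 and 10.51 (4.05 ± 0.12, adjusted p = 1.41e-10). SD1-29, a lectin-type kinase that senses bacterial fatty acid derivatives, rose by 2.37 ± 0.15. BIK1, which relays the signal of several immune receptors, went from 9.06, 9.28 and 9.12 to 11.21, 11.30 and 11.29 (2.11 ± 0.10). The fall was that of BRL1, a brassinosteroid receptor (-1.08 ± 0.14). SAG101, a partner of the immune regulator EDS1 picked after its values were seen, rose by 2.72 ± 0.10.

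In the ubiquitin system most of the U-box ligase genes rose and most of the genes for conjugating enzymes fell. Ligases of other families were not counted. Of 10 U-box ligase genes 8 rose and 1 fell (median 2.52), while of 15 genes for E2 conjugating enzymes, which hand ubiquitin to ligases, 0 rose and 11 fell (median -0.89). PUB22, PUB23 and PUB24 are ligases that dampen immune signalling. PUB24 stood at 7.51, 7.45 and 7.21 with mock and at 11.88, 11.84 and 11.85 with CHX (4.46 ± 0.10, adjusted p = 1.07e-11), PUB23 at 9.83, 9.80 and 9.79 and at 12.62, 12.56 and 12.57, and PUB22 at 8.32, 8.22 and 8.13 and at 10.79, 10.82 and 10.80. The 3 genes were high on every CHX array, and PUB23 and PUB22 rose by 2.78 and 2.58. PUB15 was called lower at -0.38 (adjusted p = 0.0295) from a level under 3, and its call did not hold with 4 of the 6 arrays left out in turn. UBC19, an E2 gene of dividing cells, went from 9.70, 9.31 and 9.36 to 7.83, 7.71 and 7.64 (-1.73 ± 0.14), UBC30 fell by 1.16 and UBC22 by 1.00. The median of the E2 genes stayed negative under all 4 scalings, but with centring on all rows 4 of them were called higher and 8 lower.

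Falls outnumbered rises among genes for deubiquitination and autophagy as deposited. Of 12 ubiquitin-specific protease genes 1 rose and 6 fell, with UBP20 at 1.12, UBP15 at -0.70, UBP25 at -0.65 and UBP24 at -0.58. With centring on all rows 5 were called higher and 1 lower and the median turned from -0.33 to 0.11. Of 10 autophagy genes, which build the vesicles that carry cytoplasm to the vacuole, 1 rose and 7 fell (median -0.55, negative under all 4 scalings). Members of the ATG8 family went different ways. ATG8E went from 9.07, 8.59 and 8.51 to 10.14, 10.66 and 10.14 (1.59 ± 0.19, adjusted p = 1.97e-05), while ATG8D fell by 1.07, ATG8F by 0.87 and ATG8G by 0.72.

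Enzymes of stress and secondary metabolism held some of the largest changes in both directions. Of 23 beta-glucosidase genes 7 rose and 6 fell, and the median was -0.08, the same as that of all genes, turning to 0.27 with quantile normalization and 0.36 with centring on all rows. BGLU27, BGLU32 and BGLU31 rose as described above. PYK10, the abundant beta-glucosidase of root endoplasmic reticulum bodies, went from 13.40, 13.32 and 13.34 to 12.94, 12.82 and 12.75 (-0.52 ± 0.08, adjusted p = 0.000213), BGLU21 stood at -0.74 and BGLU41 at -0.67. These 3 calls were lost with centring on all rows, where 0 of the 23 genes were called lower.

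Of 52 UDP-glycosyltransferase genes, which attach sugars to hormones and secondary metabolites, 14 rose and 19 fell, beside 24.2% and 30.7% of all genes tested. The balance of the family turned to 19 higher and 14 lower with quantile normalization and to 19 and 15 with centring on all rows (median -0.15, 0.24 and 0.29). UGT84B1, which acts on auxin, went from 2.31, 2.31 and 2.16 to 7.28, 7.68 and 6.87 (5.02 ± 0.18), UGT73C6 rose by 4.43 and UGT73B4 by 2.36. UGT74F1, which acts on salicylic acid, fell by 1.84, UGT74B1, an enzyme of glucosinolate synthesis, by 1.64 and UGT76B1 by 1.02. Of 15 glutathione transferase genes 5 rose and 8 fell (median -0.65), GSTF3 (3.13), GSTU25 (2.81) and GSTU22 (2.64) being among the rises and GSTU18 (-2.47), ATGSTF13 (-1.62) and GSTL3 (-1.14) the falls. Of 25 cytochrome P450 genes 6 rose and 6 fell, shares no larger than those of all genes tested. Their median of -0.05 turned to 0.31 with quantile normalization and 0.40 with centring on all rows. CYP84A4 stood at 1.35, CYP71B23 at 0.68 and CYP71B6 at 0.45, and CYP71B26 at -2.29, CYP718 at -1.36 and CYP71B34 at -0.96.

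Genes that handle oxidised molecules differed between close relatives. All 3 measured NDB genes, for alternative NADH dehydrogenases of the mitochondrial surface, rose (median 2.48). NDB4 stood at 4.41, 3.97 and 4.82 with mock and at 11.40, 11.74 and 11.81 with CHX, a 152-fold rise (7.25 ± 0.20, adjusted p = 5.46e-11), and NDB3 and NDB2 rose by 2.48 and 1.65. Methionine sulfoxide reductases of type B repair oxidised methionine, and of 6 measured 2 rose and 2 fell. MSRB8 went from 6.03, 6.27 and 5.69 to 11.36, 11.39 and 11.59 (43.5-fold, 5.44 ± 0.19), and MSRB9 rose by 1.49. MSRB5 went from 7.42, 7.34 and 7.07 to 2.76, 2.73 and 2.50 (24.4-fold lower, -4.61 ± 0.21), and MSRB4 from 9.68, 9.52 and 9.17 to 4.99, 5.19 and 4.91 (21.5-fold lower, -4.43 ± 0.21). MSRB3 (0.26) and MSRB6 (0.13) were not called, although MSRB3 was called higher under several alternatives. Among these were a replicate block (adjusted p = 0.0316), quantile normalization (0.33) and centring on all rows (0.70). By locus number MSRB8 and MSRB9 lie together, as do MSRB3 to MSRB6, so the genes that fell lie beside genes that were not called lower.

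Of 8 aldehyde dehydrogenase genes 0 rose and 5 fell (median -0.58), with ALDH7B4 at -1.51, ALDH6B2 at -0.77, ALDH10A9 at -0.63, ALDH3F1 at -0.61 and ALDH10A8 at -0.54. ALDH11A3 (-0.21), ALDH22A1 (-0.12) and ALDH2C4 (-0.10) were not called. With centring on all rows 2 genes were called higher, ALDH2C4 (0.34) and ALDH22A1 (0.32), and 2 lower, and the calls of ALDH3F1, ALDH10A9 and ALDH10A8 were lost. Of 10 genes for proteins of the cold and dehydration response 3 rose and 5 fell. LTI30, a dehydrin gene, went from 5.91, 5.56 and 6.30 to 3.91, 3.57 and 3.51 (-2.26 ± 0.21), KIN1 fell by 2.17 and the dehydrin gene COR47 by 1.63. COR27, a clock-related gene, rose by 2.00, AtLEA4-1 by 1.00 and LEA by 0.48.

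Single enzymes and regulators with a known role were picked after their values were seen, from among the larger changes of genes with a symbol. FAMT, a methyltransferase gene, went from 2.62, 2.76 and 3.16 to 9.90, 10.01 and 10.82 (7.39 ± 0.65), and CCOAMT, a caffeoyl-CoA methyltransferase gene, from 2.24, 3.09 and 3.11 to 9.31, 9.83 and 9.84 (6.84 ± 0.22). Both had a level near 3 with mock and near 10 with CHX. DLAH, a lipase gene, rose by 6.09 ± 0.11, NHL25, related to the defence gene NDR1, by 6.48 ± 0.25, the peroxidase gene PRXCA by 5.43 ± 0.26 and GRX480, a glutaredoxin that binds TGA transcription factors, by 4.48 ± 0.17. OPCL1, an enzyme of jasmonic acid synthesis, went from 8.63, 8.56 and 8.63 to 11.33, 11.26 and 11.52 (2.77 ± 0.10).

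The phenylpropanoid route, which leads to lignin and flavonoids, held changes in both directions. CCR2, a cinnamoyl-CoA reductase gene, went from 9.12, 8.85 and 8.30 to 12.57, 12.50 and 12.40 (3.74 ± 0.19). HCT, which acts earlier in lignin synthesis, went from 10.37, 10.23 and 10.29 to 7.78, 7.91 and 7.78 (5.57-fold lower, -2.48 ± 0.10, adjusted p = 1.1e-09). CHIL, a helper of flavonoid synthesis, went from 9.02, 9.13 and 9.30 to 5.79, 5.14 and 5.33 (13.3-fold lower, -3.73 ± 0.16), and the laccase gene LAC16 fell by 2.39. LPR1, a ferroxidase of the root's response to low phosphate, fell by 2.08.

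Small secreted peptides moved both ways as well, as all genes tested did (24.2% higher and 30.7% lower). Of 16 CLE peptide genes 7 rose and 3 fell, with CLE21 at 2.58, CLE14 at 2.42 and CLE41 at 1.31, the last a signal that promotes vascular stem cells. CLE1 (-0.92), CLE42 (-0.88) and CLE27 (-0.56) fell. The call of CLE27 ended without CHX array 2, and the calls of CLE27 and CLE42 ended with quantile normalization or centring on all rows. CLE14 stood at 7.97, 8.09 and 7.89 with mock and at 10.52, 10.29 and 10.39 with CHX. Of 18 RALF-like peptide genes 4 rose and 6 fell, shares near those of all genes tested. RALFL21 went from 3.92, 3.25 and 3.83 to 8.68, 8.37 and 8.38 (4.81 ± 0.23), RALFL33 rose by 2.07 and RALFL27 by 0.63. RALFL32 went from 8.20, 7.91 and 7.84 to 4.73, 4.30 and 4.05 (-3.63 ± 0.19), RALFL34, which acts in lateral root initiation, fell by 2.00 and RALFL31 by 0.87. With quantile normalization 4 RALF-like genes were called higher and 3 lower, and with centring on all rows 5 and 3, the median turning from -0.18 to 0.15 and 0.26. The CLE median of 0.03 turned to -0.08 with centring on the genes tested.

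Of 73 defensin and LCR peptide genes 10 rose and 9 fell, shares below those of all genes tested, and 54 were not called. With quantile normalization 18 were called higher and 6 lower, and with centring on all rows 30 and 6 (median -0.05, 0.19 and 0.40). At least 2-fold changes were reached by 9 of the rises and 5 of the falls, and the most extreme member was a fall. LCR69, a plant defensin, stood at 11.91, 11.95 and 11.91 with mock and at 8.42, 7.82 and 8.08 with CHX, a 14.1-fold fall (-3.82 ± 0.16, adjusted p = 1.27e-09). LCR68, a related defensin, fell by 3.38 ± 0.13 and PDF2.5 by 1.55 ± 0.08. LCR20 (2.36), LCR37 (1.44) and LCR44 (1.31) rose. Of 12 SCR-like peptide genes 2 rose and 1 fell, and the median of -0.04 turned to 0.29 with quantile normalization and 0.40 with centring on all rows. SCRL25 went from 3.12, 3.27 and 2.53 to 9.10, 9.56 and 8.83 (6.19 ± 0.25), SCRL26 rose by 1.06 and SCRL24 stood at -0.56 (adjusted p = 0.0298), a call that ended when any of 4 of the 6 arrays was dropped.

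Genes of the cell wall included both loosening and building enzymes. Of 23 expansin and expansin-like genes 7 rose and 4 fell, and their median of -0.16 turned to 0.29 with quantile normalization and 0.28 with centring on all rows. EXLA3 went from 2.81, 2.74 and 2.77 to 9.38, 8.83 and 8.81 (6.23 ± 0.21), EXLA2 rose by 3.05 and EXPA20 by 1.26. EXPB3 fell by 2.18, EXPA18 by 1.05 and EXLB1 by 0.89. Of 10 genes of the xyloglucan endotransglucosylase family 5 rose and 4 fell. XTH18 rose by 3.01, XTH33 by 2.56 and XTH16 by 1.70. XTH32 went from 7.68, 7.73 and 7.87 to 4.85, 4.61 and 4.67 (8.30-fold lower, -3.05 ± 0.15), and XTH21 and XTH26 fell by 1.79 and 1.25.

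Falls outnumbered rises among wall-building and processing genes. Of 23 trichome birefringence-like genes, whose proteins acetylate wall polymers, 5 rose and 14 fell (median -0.59, negative under all 4 scalings). TBL19 stood at 8.06, 7.85 and 7.55 with mock and at 5.67, 5.57 and 5.29 with CHX (-2.31 ± 0.14), TBL41 fell by 1.93 and TBL33 by 1.88, while TBL42 rose by 1.71, TBL34 by 1.52 and TBL45 by 1.32. Of 19 GH9 endoglucanase genes 1 rose, GH9A3 at 0.50, and 8 fell, among them GH9B8 (-1.55), GH9B5 (-1.50) and GH9B7 (-1.43). The GH9 median of -0.33 turned to 0.02 with quantile normalization and to 0.11 with centring on all rows, where 8 genes were still called lower. Of 32 serine carboxypeptidase-like genes 4 rose and 11 fell, the latter a share near the 30.7% of all genes tested, scpl30 standing at 4.34, scpl18 at 0.73, scpl28 at 0.72, scpl29 at -1.04, scpl26 at -0.86 and SCPL49 at -0.78, and their median of -0.15 turned positive under the same scalings (0.19 and 0.29).

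The microtubule genes fell together. All 7 tubulin genes measured fell (median -1.44), and the median was negative under all 4 scalings. TUB1 stood at 8.68, 8.69 and 8.55 with mock and at 6.67, 6.32 and 6.23 with CHX, a 4.69-fold fall (-2.23 ± 0.13, adjusted p = 4.03e-08). TUA6 stood at -1.75, TUB5 at -1.67, TUB6 at -1.44, TUB7 at -1.24 and TUB9 at -0.86. The gene for gamma-tubulin, TUBG1, which seeds microtubules, stood at -0.40 and turned to 0.04 with centring on all rows. Tubulin genes are close in sequence, and probes that read several of them were not examined. Of 5 SPIRAL1-like genes, whose proteins bind the growing ends of microtubules, 0 rose and 4 fell. SP1L5 went from 4.60, 4.12 and 4.78 to 2.01, 2.02 and 1.88 (-2.52 ± 0.19), SP1L4 fell by 1.58, SP1L3 by 1.02 and SP1L2 by 0.96, and SP1L1 stood at -0.30 (adjusted p = 0.161).

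Most chaperone genes fell. Of 20 genes for chaperones and their partners 2 rose and 14 fell (median -1.01, negative under all 4 scalings). BIP1, an Hsp70 of the endoplasmic reticulum, stood at 3.66, 3.90 and 3.83 with mock and at 1.48, 1.62 and 1.27 with CHX (5.08-fold lower, -2.34 ± 0.16). BIP1 has a near-identical copy, BIP2, so its value is uncertain. CRT1b, a calreticulin of the same compartment, went from a mean of 11.06 ± 0.07 to 9.27 ± 0.22 (SD, n = 3; 3.46-fold lower, -1.79 ± 0.12, adjusted p = 1.2e-07). S1P, a Golgi protease that activates stress factors of the endoplasmic reticulum and was picked after its values were seen, fell by 1.64 ± 0.10. Cpn60beta4, a subunit of the plastid chaperonin, went from 7.45, 7.40 and 7.68 to 4.50, 4.60 and 4.38 (-3.02 ± 0.13). The 2 rises were those of Fes1B, an Hsp70 partner (2.04 ± 0.15), and ATJ1, a J-domain protein (1.00 ± 0.12).

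As deposited, genes of the RNA machinery fell in most cases, which did not hold for all of these families with centring on all rows. Of 9 genes for subunits of RNA polymerase II or its relatives 0 rose and 7 fell (median -0.55), with NRPB10 going from 8.44, 8.36 and 8.36 to 6.93, 6.95 and 6.92 (-1.45 ± 0.12), NRPB6B falling by 1.11 and NRPB8B by 0.99. Of 6 genes for Sm-like proteins, which act in splicing and decapping of mRNA, 0 rose and 5 fell (median -0.73). LSM3A fell by 1.14, LSM6A by 1.1 and LSM3B by 1.06. LSM6B and LSM1A were called at -0.40 and -0.26, the call of LSM1A ending when any of 5 of the 6 arrays was dropped. LSM1B, at 0.32, was not called. It was called higher under several alternatives, among them a replicate block (adjusted p = 0.0163), quantile normalization (0.50) and centring on all rows (0.77). The medians of the RNA polymerase II and Sm-like genes were negative under all 4 scalings. With centring on all rows they stood at -0.11 and -0.29, and LSM6B and LSM1A turned to 0.04 and 0.18. There 1 RNA polymerase II gene was called higher and 4 lower, and 1 Sm-like gene higher and 3 lower. Of 8 Mediator subunit genes 2 rose and 4 fell. MED32 rose by 0.73 and MED10A by 0.48, a call that ended without mock array 1 or CHX array 1 and with centring on the genes tested, MED22B fell by 0.96, MED21 and MED31 by 0.58 and MED9 by 0.35, and MED6 (-0.23) and MED19A (0.12) were not called. MED9 turned to 0.09 with centring on all rows, and the median turned from -0.29 to 0.15. With that scaling 3 Mediator genes were called higher and 1 lower. Of 3 factors listed for nonsense-mediated decay, which destroys mRNAs with early stop codons and needs translation, UPF3 rose by 0.47 ± 0.09, AT2G39260 fell by 0.48 ± 0.09 and AT1G15280 stood at 0.12. With centring on all rows 2 of these were called higher and 0 lower.

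Transcripts of the organelle genomes, whose ribosomes CHX does not block, stood slightly lower. Of 63 plastid genes 0 were called higher and 60 lower, with a median of -0.54. ndhC went from 9.96, 9.94 and 10.01 to 8.71, 8.70 and 8.71 (-1.26 ± 0.08), ndhK fell by 1.03 and matK by 1.02. Of 17 mitochondrial genes 0 were called higher and 17 lower (median -0.38), among them ccb203 at -0.69, orfX at -0.59 and ccb452 at -0.57. These shifts are close to the size of the scaling differences. With centring on all rows 14 plastid genes were called lower and 0 higher (median -0.10), while 1 mitochondrial gene was called in each direction and the mitochondrial median turned to 0.06.

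Of 14 SWEET sugar transporter genes 4 rose and 4 fell, and their median of -0.03 turned to 0.27 with quantile normalization and 0.41 with centring on all rows. SWEET14 rose by 1.88 ± 0.21, SWEET13 by 1.37 and SWEET8 by 0.83, and SWEET3 fell by 1.22, SWEET17 by 0.93 and SWEET2 by 0.87. SWEET17, a vacuolar fructose transporter of roots, stood at 7.02, 6.86 and 7.04 with mock and at 6.13, 5.98 and 6.01 with CHX.

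**Figure D3:**
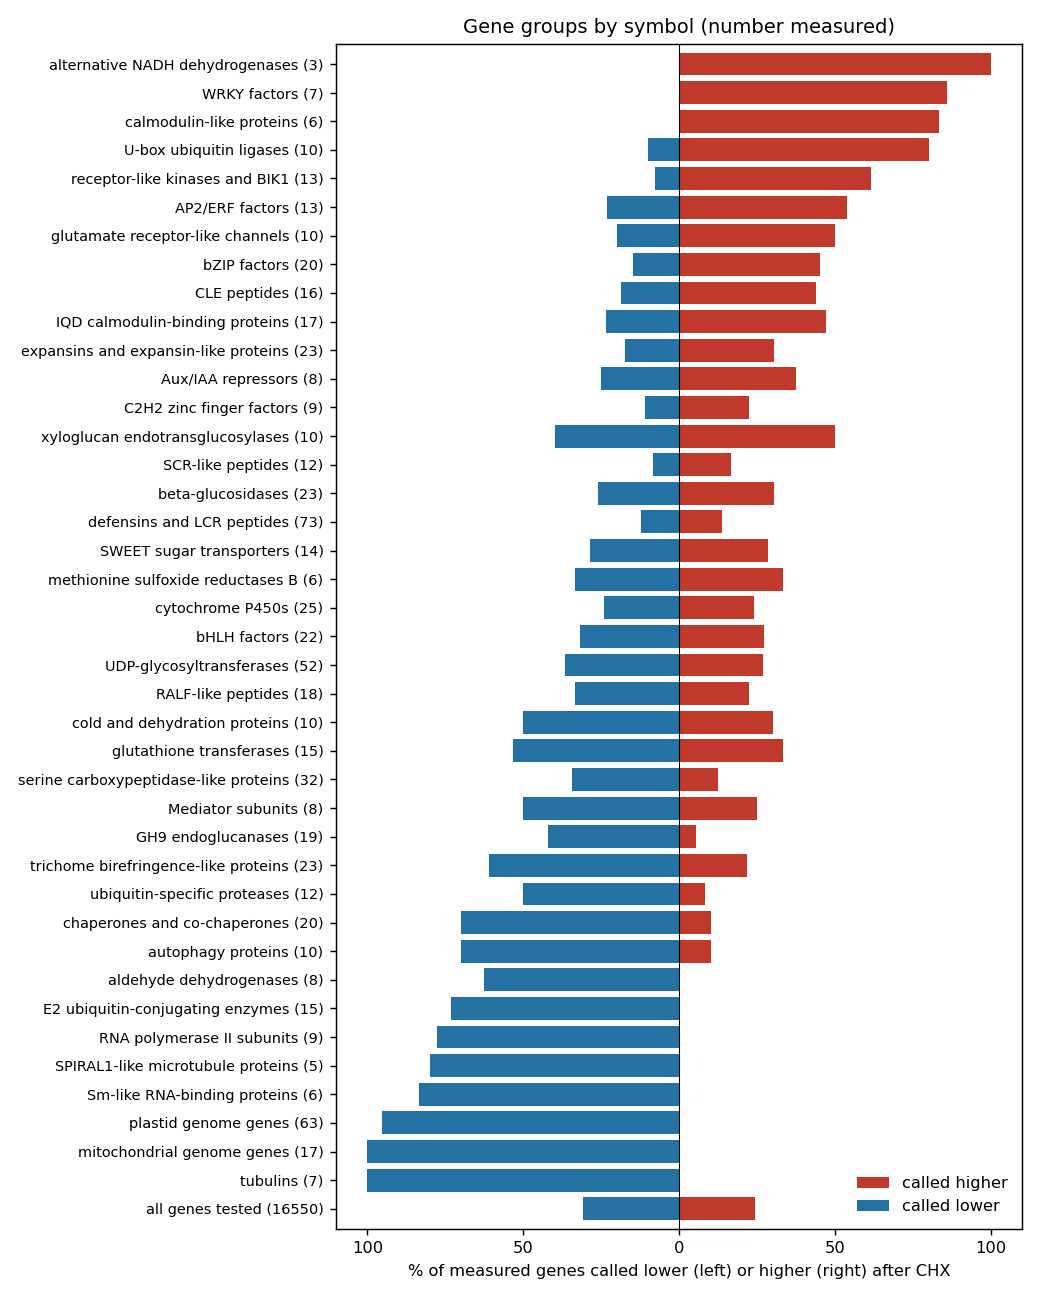
Percentage of the measured genes of each gene family called lower (left, blue) or higher (right, red) after CHX, ordered by the difference, with the number measured in parentheses and all 16550 genes tested at the bottom. The NDB, WRKY, calmodulin-like and U-box families lie at the upper end, and the tubulins, the organelle genes and the Sm-like proteins at the lower end.

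Markers of root cell types were sparsely covered. Of 18 listed root hair genes 4 were measured, and all 4 fell (median -0.97, negative under all 4 scalings). The mean level over the 4 ran from 8.87 to 9.02 on the mock arrays and from 7.95 to 8.20 on the CHX arrays, without overlap. EXPA18, an expansin of root hairs, went from 10.49, 10.40 and 10.37 to 9.44, 9.26 and 9.43 (-1.05 ± 0.11), XTH26 fell by 1.25 and AT4G26010 by 0.88. EXPA7 stood at -0.40 and turned to 0.04 with centring on all rows. No listed marker of xylem, phloem or root cap was measured. For the endodermis GSO1, a receptor needed for the Casparian strip barrier, rose by 0.42 ± 0.10, and for the root stem cell niche BBM, a regulator of the meristem, rose by 1.14 ± 0.14. Of the green shoot markers RCA, the activase of Rubisco, fell by 0.87 ± 0.18 and PORB, a chlorophyll synthesis enzyme, stood at 0.59 (adjusted p = 0.0636), the mean of both being 5.94 to 6.45 on mock arrays and 5.86 to 6.28 on CHX arrays. PORB was called higher under several alternatives, among them a replicate block (adjusted p = 0.00977), quantile normalization (1.05) and centring on all rows (1.04). Centring on all rows also ended the call of RCA (-0.43). The part of any change in cell makeup in the gene results was not tested. Of 21 listed cell cycle genes 4 were measured, and 3 of these fell. The centromere histone gene HTR12 went from 8.78, 8.99 and 8.88 to 8.11, 7.86 and 7.87 (-0.94 ± 0.10), and the Aurora kinase genes AUR2 and AUR1 fell by 1.06 and 0.60. PRL, which encodes a licensing factor of DNA replication, stood at -0.09 (adjusted p = 0.49). With centring on all rows 1 cell cycle gene was called higher, PRL at 0.36, and 2 lower, the call of AUR1 being lost at -0.16.

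**Figure D4:**
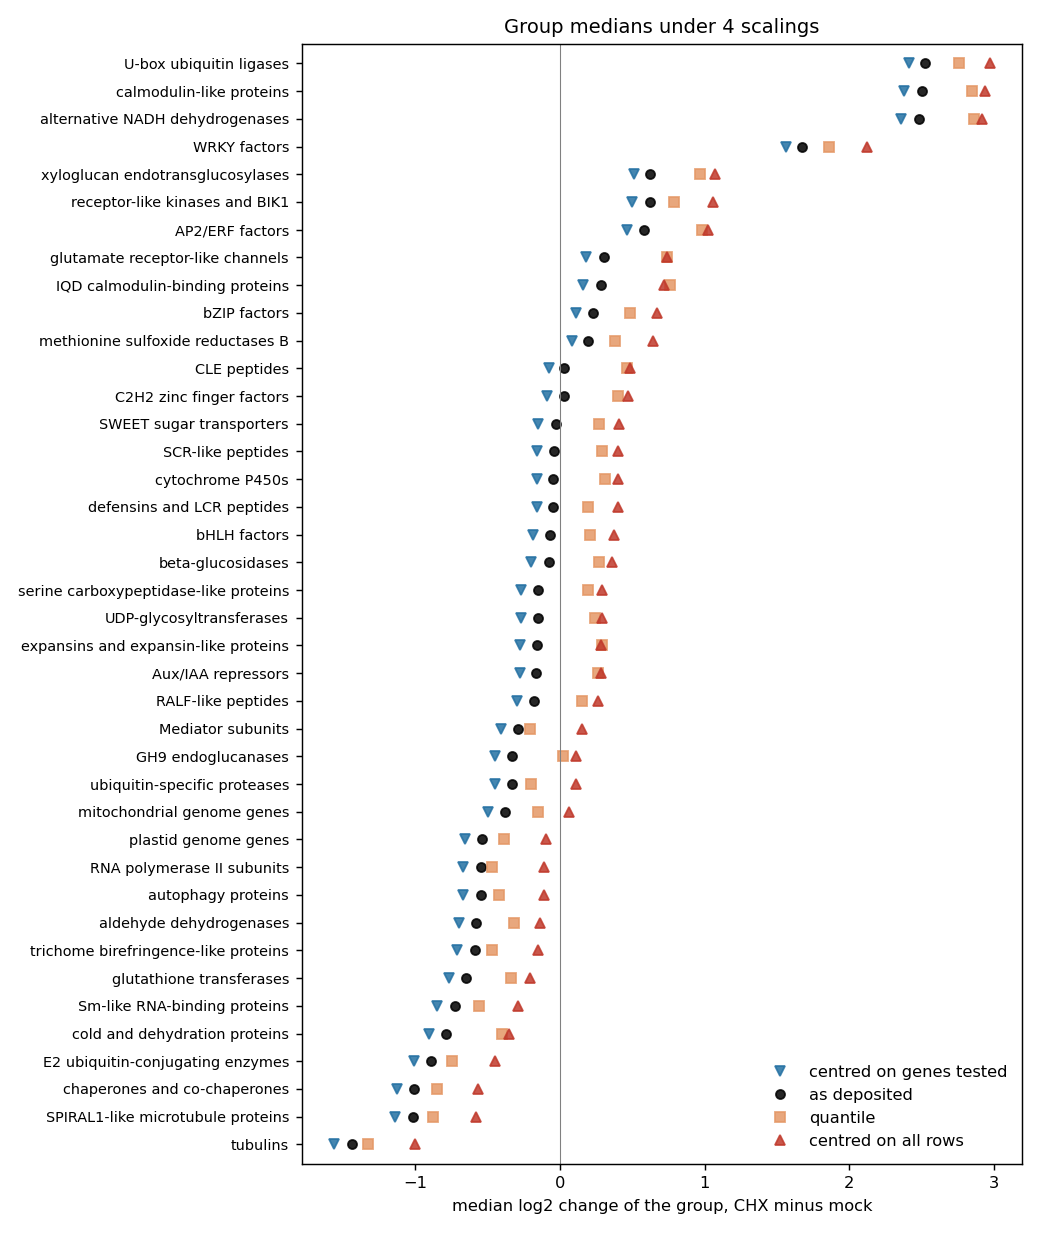
Median log2 change (CHX minus mock) of each gene family as deposited (circles), after centring each array on the genes tested (downward triangles), after quantile normalization (squares) and after centring on all rows (upward triangles). The U-box, calmodulin-like, NDB and WRKY families stay right of 0 and the tubulins and chaperones left of 0, while families with a deposited median between about -0.4 and 0.1 cross 0.

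The DEX and DEX+CHX arrays, which the comparison of CHX with mock did not use, gave a separate measurement of the CHX effect in roots in which the fusion was activated. In that comparison 9235 genes (55.8%) were called, 3860 higher (23.3%) and 5375 lower (32.5%). Of the genes called higher without DEX, 3501 were called higher with it, which is 87.5% of the former list and 90.7% of the latter. For lower genes 4554 were shared, which is 89.5% and 84.7%. Only 8 genes were called in opposite directions. The calls are not fully independent, because both comparisons were tested against 1 spread per gene, estimated over all 12 arrays. Across genes, which share arrays and normalization, the changes correlated at r = 0.975 (Spearman's rho 0.917). Of the 2081 genes at least 2-fold higher, 2079 had a positive change with DEX, with medians of 1.95 and 1.97, and of the 1752 at least 2-fold lower 1751 had a negative one, with medians of -1.37 and -1.37.

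Of the 252 named genes called without DEX, 239 were also called in the same direction with it, and 13 were not. Among the 13, RALFL27 stood at -0.01 with DEX, LEA at 0.06, CLE1 at -0.23, CLE27 at -0.24, CYP71B34 at -0.35, JKD at -0.11, LSM1A at -0.07, PUB15 at -0.05 and MED10A at 0.36. For larger changes BGLU27 rose by 8.75 with DEX, STZ by 6.14, CML38 by 5.41, NDB4 by 7.01, PUB24 by 4.69 and BZIP60 by 4.19. TUB1 fell by 2.43 with DEX, BIP1 by 2.02, HCT by 2.40, LCR69 by 3.75 and bZIP58 by 3.66. The direct test of the difference between the CHX effects called 21 genes (0.127%), of which SCRL26 and AT2G12462 are named above.

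**Figure D5:**
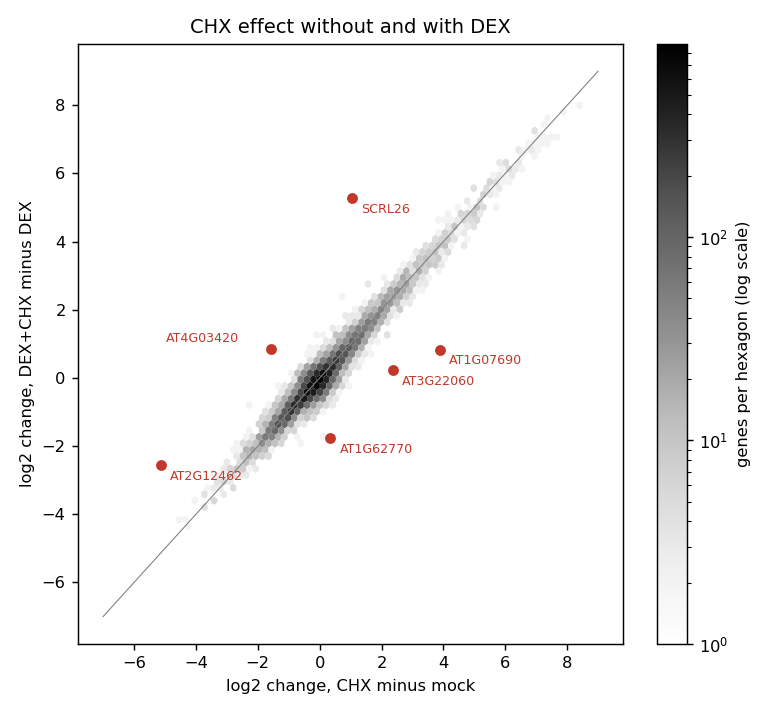
Log2 change after CHX without DEX (horizontal axis) and with DEX (vertical axis) for 16550 genes, shaded by the number of genes per hexagon on a log scale, with the line of equal change. Most genes lie along the line, and 6 of the 21 genes whose CHX effect differed, SCRL26 and 5 named by locus, are marked in red.

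Genes that rose and genes that fell differed in their level in roots without CHX. On the DEX arrays, whose levels took no part in the choice of these genes, the genes at least 2-fold higher after CHX had a median level of 5.67 (quartiles 4.07 and 7.22), those at least 2-fold lower a median of 7.89 (6.51 and 9.18), and all genes tested a median of 5.90. Genes that were not called had a median of 3.95. On the DEX+CHX arrays the order was turned, with medians of 8.25 for the higher and 6.28 for the lower genes. A gene can fall far only from a level well above the dimmest values.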

How the data were processed

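RNA from whole roots was hybridised to Affymetrix arrays, 1 per sample. The deposited log2 values were made by the authors with Affymetrix Expression Console 1.3, per the submitters' processing notes, and were used unchanged. How they were summarized and normalized is not stated in those notes or labels, and log2 was read from the range of 0.426 to 13.98. Of 38408 rows, 16722 were paired with 1 gene by the platform annotation, 759 with several and 20927 with none. Where a gene had several probe sets the brightest by mean was kept, which left 16550 genes, and symbols came from the RefSeq table of TAIR10.1.

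In R 4.3.3, limma 3.58.1 fitted 1 mean per treatment to all 12 arrays (lmFit, eBayes). Calls are Benjamini-Hochberg adjusted p below 0.05 over all genes, two-sided. ± is the standard error. The method was tested on simulated data. Array numbers limit the precision.

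Members, lists and tests were chosen with earlier results of these data known. Of 10 locus lists, 104 loci, 16 were measured. The 40 families by symbol (689 genes) replaced planned groups by product text, which was not used here. Named are the 15 largest changes per direction among genes called with no overlap between the groups' arrays, up to 3 members per direction of each list with the smallest p, every member of lists of up to 8, LBD16, the 3 clearest differences with DEX per direction, and 15 genes picked after their values were seen. No sequences or promoters were analysed here, and 1 gene family is not reported here.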

Additional observations from a re-analysis of the deposited data

Results flagged for a closer look

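For 21 genes the CHX effect differed with and without DEX by the test of that difference, and the 3 with the smallest p in each direction are given here as DEX+CHX minus DEX less CHX minus mock. SCRL26 differed by 4.21 ± 0.36 SE on the log2 scale (adjusted p = 0.000403), having changed by 1.06 without and 5.27 with DEX. AT2G12462 differed by 2.57 ± 0.27 (adjusted p = 0.00214), with changes of -5.13 and -2.56. AT4G03420 differed by 2.41 ± 0.23 (adjusted p = 0.00107), with changes of -1.57 and 0.84. AT1G07690 differed by -3.07 ± 0.21 (adjusted p = 0.000179), with changes of 3.90 and 0.83. AT3G22060 differed by -2.16 ± 0.18 (adjusted p = 0.000403), with changes of 2.38 and 0.22. AT1G62770 differed by -2.11 ± 0.18 (adjusted p = 0.000403), with changes of 0.35 and -1.77. Groups of 3 arrays are too small for a check of single outlying arrays.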

How the results depend on the processing

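The count of 9088 called genes was 23040 with all 38408 rows tested and 3833 with a fold minimum of 2, and between 8449 and 10719 under the other scalings, the filter on dim genes, the mean of probe sets and the trended variance. The 4002 higher genes were 6448 with quantile normalization, 8079 with centring on all rows, 6998 with all rows tested and 2081 with the fold minimum. The 5086 lower genes were 2640 with centring on all rows, 3579 with quantile normalization, 16042 with all rows tested and 1752 with the fold minimum. Leaving out each mock or CHX array in turn gave 8416 to 8662 genes, 3696 to 3873 higher and 4670 to 4921 lower. For CHX with DEX, alternatives chosen after seeing the data gave 23549 genes with all rows and 3872 with the fold minimum, against 9235, and for the difference between the CHX effects 32 with all rows and 53 with a trended, robust variance, against 21. Of the 270 named genes, 191 kept direction and side of the threshold under every alternative. The direction turned with centring on all rows for EXPA7 (0.04), PRL (0.36), JKD (0.20), FD (0.07), PUB15 (0.06), ALDH2C4 (0.34), ALDH22A1 (0.32), TUBG1 (0.04), LSM6B (0.04), LSM1A (0.18) and MED9 (0.09), and with quantile normalization for FD (0.01). The deviations of same-numbered mock and CHX arrays correlated at 0.111, 0.077 and 0.211, and those of same-numbered DEX and DEX+CHX arrays at 0.0854, 0.0726 and 0.189. These correlations were weak, but every array correlated best with its own number, so a replicate structure is possible. The main fit did not pair the arrays. With the replicate number as a block 9436 genes were called, 4170 higher and 5266 lower, and 9635 for CHX with DEX. The product-text groups and promoter motifs were not run. The arrays carry no detection call, so signal over background is unknown.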

Other observations

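Genes that rose after CHX lay beside each other in the genome more often than genes overall. In the gene order of TAIR10.1, 29.4% of the measured neighbours of genes at least 2-fold higher were themselves at least 2-fold higher, against 12.9% of all measured neighbours. For genes at least 2-fold lower the shares were 15.5% and 10.2%. The longest run was of 10 consecutive measured genes on chromosome 5, from AT5G52670 to AT5G52760, with log2 changes from 2.00 to 7.62. Runs of 7 genes lay on chromosome 1 from AT1G13490 to AT1G13550 (1.67 to 5.02) and from AT1G65481 to AT1G65510 (1.40 to 5.45), and a run of 5 from AT1G61360 to AT1G61400 (1.16 to 3.87) held SD1-29. Neighbours can be copies of each other, and the share of probes that read more than 1 of them was not examined.

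The median gene length in TAIR10.1 was 1914 bases for genes at least 2-fold higher, 1930 for those at least 2-fold lower and 1916 for all genes tested, with a length for 98.8%, 99.0% and 98.7% of them.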
